A study of Mus musculus with 24 samples.

Results

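The genes described here are 34 enzymes, transporters and regulators of fatty acid and triglyceride synthesis, taken by symbol from a fixed list and found, all 34 of them, among the 25385 genes of a mouse RNA-seq series. The transcripts of a symbol were summed. RNA came from marrow-derived mesenchymal stem cells (mdMSC), stromal cells of the bone marrow that can form osteoblasts or adipocytes, expanded for at most 10 passages from cryopreserved stocks. The labels give no strain, sex or age and no genetic change. The 24 libraries formed 8 groups of 3. Undifferentiated cells (day 0) had no differentiation medium, osteogenic cells were kept for 7 or 15 days with ascorbic acid at 50 µg/mL and β-glycerophosphate at 10 mM, and adipogenic cells for 7 days with 5 µg/mL insulin, 50 µM indomethacin and 0.1 µM dexamethasone. In each of these 4 states, 3 libraries were treated for 24 hours with 100 nM 1,25(OH)2D3 (VD3), the hormonal form of vitamin D and ligand of its nuclear receptor, and 3 with ethanol vehicle. All undifferentiated libraries are of day 0, so in comparisons with them the medium and the time in culture cannot be told apart. In RNA from whole cultures, fewer cells of a type and less RNA per cell cannot be told apart either.

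Fatty acid synthesis starts from citrate, which leaves the mitochondrion and is split to acetyl-CoA in the cytosol. Acetyl-CoA is carboxylated to malonyl-CoA, fatty acid synthase builds palmitate from it with NADPH, and elongases and desaturases lengthen the chain and insert double bonds. Triglyceride assembly adds acyl chains to glycerol 3-phosphate in turn, removes the phosphate and adds the last chain. The transcription factors SREBP-1c and ChREBP and the liver X receptor turn the pathway's genes on, and adipocytes store its product in a lipid droplet. By role, the list holds 5 genes that supply acetyl-CoA and NADPH, 3 of malonyl-CoA and palmitate synthesis, 5 desaturases, 6 elongases, 3 regulators and 10 genes of glycerol 3-phosphate supply and triglyceride assembly. The other 2 members do neither job: Mgll, the monoacylglycerol lipase, breaks lipid down, and Sptlc3 is a subunit of serine palmitoyltransferase, which starts sphingolipid synthesis.

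Values are RPKM, reads scaled to transcript length and library depth, which are per length and so can be set side by side between genes. A log2 difference is between group means of log2(RPKM + 1), which understates the change of genes near or below 1 RPKM, and is given ± its standard error with 3 libraries a group. A gene is said to rise or fall where its adjusted p was below 0.05 in limma's moderated test over all 24 libraries, with Benjamini-Hochberg adjustment over the 21097 genes tested. All 34 members passed the filter for testing, at least 1 RPKM in at least 3 libraries. Without the adipogenic libraries, Acacb, Elovl3, Mlxipl and Thrsp would not have passed it, and Pck1 passed only through the 3 day 0 vehicle libraries. A gene that passes only through the group where it is high had to differ, so the differences of these genes from that group are given as values that support nothing. Whether the 3 replicates of a group were grown separately is not in the labels, and p-values then describe only how these samples vary, which may be technical.

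Depth estimated from the files was 7.09 to 46.2 M reads a library, and 3 reads on a transcript of 1 kilobase are worth 0.0649 to 0.423 RPKM. The 3 day 0 vehicle libraries and 2 of the 3 day 0 VD3 libraries stood apart: 1491 chemosensory receptor genes, normally silent outside sensory tissue, had a median of 3.38 to 4.93 RPKM in those 5 libraries and 0.208 to 1.30 RPKM in the other 19. In day 0 vehicle libraries, 13 members had means below the receptor median of 4.20 ± 0.714 RPKM, namely Acacb, Elovl1, Elovl3, Elovl4, Mlxipl, Thrsp, Gpd1, Pck1, Agpat2, Dgat1, Dgat2, Mgll and Sptlc3. Falls of these genes from day 0 move with that signal, and its part in them was not tested. The median of all genes tested was -0.83 (log2) on adipogenic day 7 against day 0, and -0.05 after quantile normalization. For osteogenic days 7 and 15 against day 0 it was -0.46 and -0.55, and 0.06 in both after quantile normalization. For the cell type labels, 8 adipocyte markers summed to 29001 to 31354 RPKM in adipogenic vehicle libraries against 72.4 to 92.5 at day 0. Most of the sum was carried by Fabp4 (22526 ± 902). Of the 8, 7 were higher and Lep was lower (0.185 ± 0.0330 against 2.54 ± 0.792 RPKM), beside 13.2% and 65.5% of all genes. Without the adipogenic libraries, Plin1, Cidec and Cfd would not have passed the filter. Lep passed it only through the 5 day 0 libraries that stood apart, and its day 0 mean lay below the receptor median. The differences of Plin1, Cidec, Cfd and Lep support nothing. The sum of 8 osteoblast markers was 691 to 835 RPKM in osteogenic vehicle libraries against 67.0 to 77.5 at day 0. On both days 7 of 8 were higher, beside 13.6% of all genes on day 7 and 17.5% on day 15. The osteoblast sum was 129 to 150 RPKM in adipogenic vehicle libraries. There, 3 of the 8 were higher than at day 0 and 4 lower, beside the same 13.2% and 65.5% of all genes. Among the higher were Ibsp (104 ± 7.89 against 9.55 ± 0.514) and Alpl (17.3 ± 2.58 against 5.44 ± 0.992). Markers of leukocytes and endothelium had low sums in every group (4.87 to 17.7 and 0.828 to 14.5 RPKM). The highest endothelial sums, on osteogenic day 15, were mostly Kdr, at 12.4 ± 2.06 RPKM with vehicle against 1.93 ± 0.563 at day 0. Of the hepatocyte markers, Cyp2e1 stood at 23.6 ± 2.80 RPKM on adipogenic day 7 and albumin, Alb, at 0.264 ± 0.0841.

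Promoter sequence was at hand for 27 of the 34 members, and not for Scd1, Scd2, Fads1, Elovl3, Gpd1, Dgat1 and Dgat2. The motif shares below leave these genes out, among them Scd1, Gpd1 and Dgat2 with large rises in adipogenic medium. The 250 bases before the start are printed as examples for 3 genes called higher in adipogenic medium, Fasn, Thrsp and Slc25a1. They are also printed for Elovl6, which fell there and rose with VD3. Thrsp would not have passed the filter without the adipogenic libraries, so its rise supports nothing. The sequences are from RefSeq on GRCm38.p6, a later build than the mm9 of the deposited values. They are written 5′ to 3′ on the gene's strand. Capitals mark the CCAAT box (CCAAT, or ATTGG on the other strand), the E-box CACGTG and the nuclear receptor half-site AGGTCA (or TGACCT). The windows are chr11:120824548-120824797 (minus strand) for Fasn, chr7:97417551-97417800 (minus) for Thrsp, chr16:17928220-17928469 (minus) for Slc25a1 and chr3:129532136-129532385 (plus) for Elovl6.

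Fasn: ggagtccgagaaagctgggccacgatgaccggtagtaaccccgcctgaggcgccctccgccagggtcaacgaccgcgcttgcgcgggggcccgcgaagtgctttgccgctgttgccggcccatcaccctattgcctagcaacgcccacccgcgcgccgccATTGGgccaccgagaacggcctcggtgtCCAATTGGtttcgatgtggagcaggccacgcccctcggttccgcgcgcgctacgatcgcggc

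Thrsp: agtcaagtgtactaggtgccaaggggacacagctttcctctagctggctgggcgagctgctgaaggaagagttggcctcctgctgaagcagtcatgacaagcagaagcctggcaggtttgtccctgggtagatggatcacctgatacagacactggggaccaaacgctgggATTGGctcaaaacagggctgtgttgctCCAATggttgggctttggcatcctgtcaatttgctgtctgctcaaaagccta

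Slc25a1: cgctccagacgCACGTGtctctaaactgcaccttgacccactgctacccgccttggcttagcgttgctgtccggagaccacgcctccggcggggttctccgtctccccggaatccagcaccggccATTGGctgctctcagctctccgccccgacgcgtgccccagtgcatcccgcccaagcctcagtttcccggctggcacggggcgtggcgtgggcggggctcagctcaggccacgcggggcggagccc

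Elovl6: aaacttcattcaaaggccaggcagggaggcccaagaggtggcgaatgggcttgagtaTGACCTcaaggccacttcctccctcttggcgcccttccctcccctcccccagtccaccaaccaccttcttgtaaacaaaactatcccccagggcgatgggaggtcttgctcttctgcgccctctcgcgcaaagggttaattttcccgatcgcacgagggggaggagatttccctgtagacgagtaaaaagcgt

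Fasn carries CCAAT boxes from -90 to -86, -62 to -58 and -59 to -55, of which the last pair overlap, and Thrsp has them from -79 to -75 and -52 to -48. Slc25a1 has an E-box from -239 to -234 and a CCAAT box from -125 to -121, and Elovl6 holds a half-site from -193 to -188. Over whole windows of 300 bases (to 50 bases past the start, both strands), CCAAT stood in 17 of the members' 37 windows, 45.9% against 37.4% of all 32851 windows. CACGTG was in 6 (16.2% against 7.15%) and AGGTCA in 7 (18.9% against 16.3%). The sterol element TCACNCCAC, a binding sequence of SREBP proteins, was in 1 window, that of Mlxipl (2.70% against 1.24%). The vitamin D receptor's repeat of GGTCA with 3 bases between, and GGTCA followed after 1 base by AGGTCA, were in none of the 37 windows and in 0.0670% and 0.0761% of all windows. A match of letters is a description and not a binding site.

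Adipogenic day 7 was set against day 0 and against osteogenic day 7 in vehicle libraries, to ask what changed toward fat. Against day 0, 27 of the 34 members rose, 5 fell and 2 did not pass. Over all genes tested, 13.2% rose and 65.5% fell in that comparison. The members' median difference was 1.79 (log2) against -0.83 for all genes. Against osteogenic day 7, 25 members rose and 4 fell, beside 12.4% and 25.4% of all genes, and the median was 1.62 against 0.02. The same 24 members rose in both comparisons and 3, Elovl5, Elovl6 and Lpin2, fell in both. The rises counted include Acacb, Elovl3, Mlxipl and Thrsp, which would not have passed the filter without the adipogenic libraries. The falls from day 0 include Pck1, which passed only through the day 0 vehicle libraries. The values of these genes support nothing here. Because both comparisons use the same adipogenic libraries, they are not independent of each other. The members' summed RPKM took 2.17 to 2.28% of all RPKM on adipogenic day 7 and 0.0853 to 0.102% at day 0, and Scd1 alone made up 77.1 to 78.5% of the members' sum in the adipogenic libraries. Without Scd1 the shares were 0.481 to 0.497% and 0.0683 to 0.0810%.

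**Figure D1:**
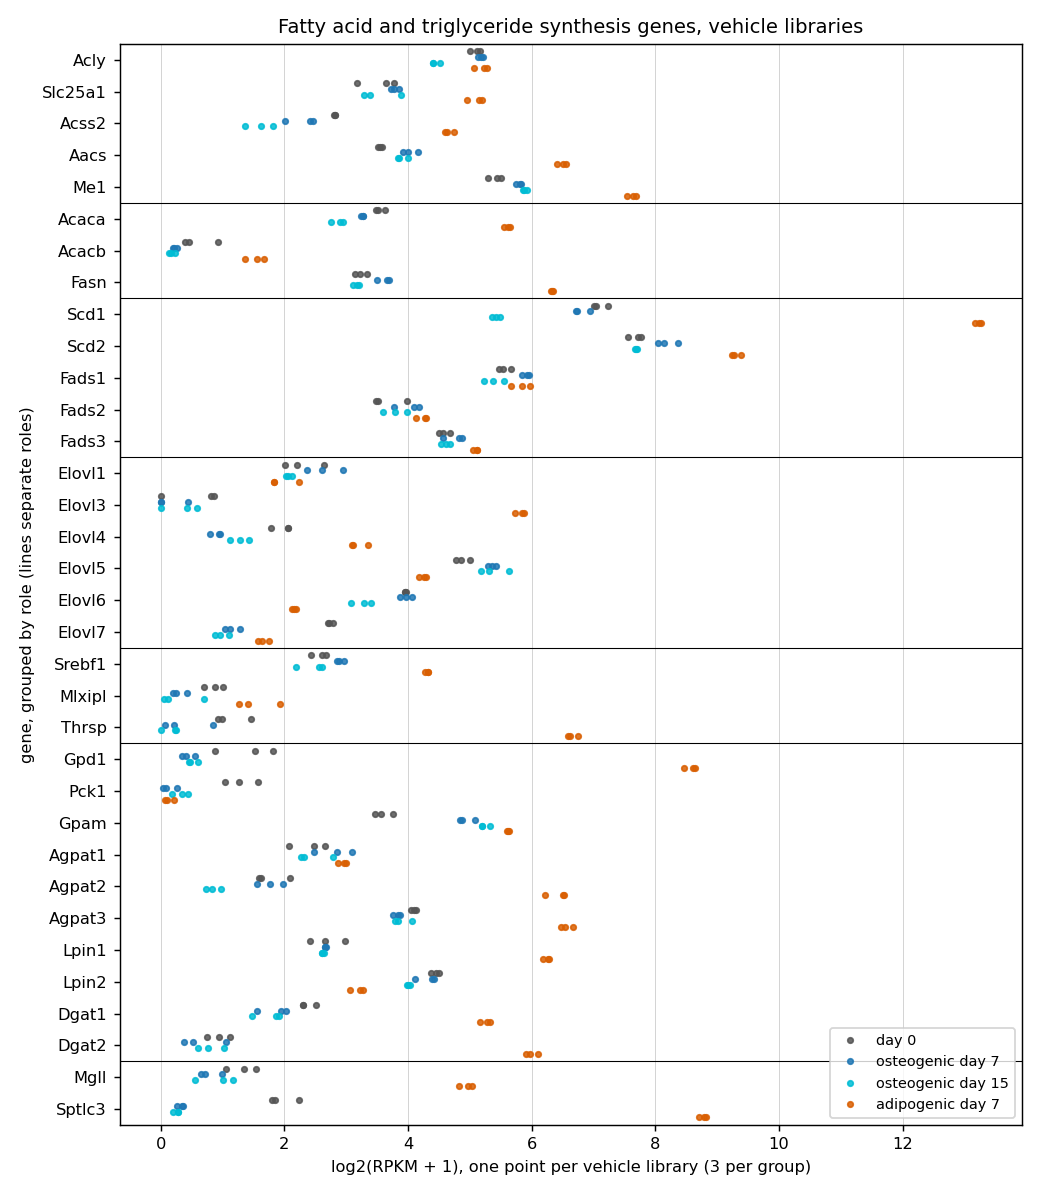
Level of each of the 34 genes, grouped by role, in the 12 vehicle libraries as log2(RPKM + 1), 1 point per library, with 3 libraries in each of 4 states. The adipogenic points (orange) lie to the right of the others for most genes, as for Scd1 at 9176 to 9904 RPKM, and to the left for Elovl5, Elovl6 and Lpin2.

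In the supply of acetyl-CoA and NADPH, 4 of 5 genes rose in adipogenic medium and the citrate-splitting enzyme did not. Acly, ATP citrate lyase, was at 36.4, 32.5 and 38.0 RPKM in adipogenic libraries, 33.9, 35.0 and 31.0 at day 0 and 35.3, 33.9 and 35.9 on osteogenic day 7. These 3 groups overlap, and the differences were 0.09 ± 0.07 (limma adjusted p = 0.238) and 0.02 ± 0.07 (adjusted p = 0.877). Slc25a1, the carrier that brings citrate out of the mitochondrion, was at 34.6, 35.7 and 29.9 RPKM against 12.7, 11.5 and 8.03 at day 0. It lay above all day 0 and osteogenic libraries and rose by 1.57 ± 0.16 over day 0 and 1.31 ± 0.16 over osteogenic day 7. Acss2, which makes acetyl-CoA from acetate, was at 25.8, 23.9 and 23.2 RPKM against 6.04, 5.96 and 6.09 at day 0 and 4.52, 3.05 and 4.36 on osteogenic day 7 (log2 1.85 ± 0.14 and 2.36 ± 0.14). The largest change of this role was that of Aacs, which activates acetoacetate for lipid synthesis. It went from 10.7, 10.4 and 11.0 RPKM at day 0 to 92.6, 90.2 and 84.2, an 8.33-fold rise (log2 2.94 ± 0.09, limma adjusted p = 3.28e-17), and was 5.78-fold above osteogenic day 7. Me1, malic enzyme, a source of NADPH, rose from 42.4, 44.2 and 38.2 to 186, 204 and 198 RPKM (log2 2.21 ± 0.08, and 1.83 ± 0.08 over osteogenic day 7).

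The 3 genes of malonyl-CoA and palmitate synthesis all rose in both comparisons. Acacb passed the filter only through the adipogenic libraries, so its rises support nothing. Acaca, acetyl-CoA carboxylase 1 of the cytosol, was at 45.9, 49.1 and 47.9 RPKM against 11.4, 10.4 and 10.1 at day 0 and 8.69, 8.45 and 8.68 on osteogenic day 7. It was 4.48-fold and 5.53-fold higher (log2 2.06 ± 0.07 and 2.34 ± 0.07). Fasn, fatty acid synthase, reached 79.7, 80.7 and 78.6 RPKM from 9.15, 8.39 and 7.82 at day 0, a 9.42-fold rise (log2 3.09 ± 0.09, limma adjusted p = 4.88e-18), and was 7.04-fold above osteogenic day 7. The libraries of each group lie within a narrow band for both genes and no group touches the adipogenic one. Acacb, the carboxylase at the mitochondrial surface that restrains fatty acid oxidation, stayed low at 1.94, 2.17 and 1.57 RPKM against 0.320, 0.909 and 0.380 at day 0 (log2 0.93 ± 0.18, adjusted p = 0.000122) and 0.195, 0.162 and 0.150 on osteogenic day 7 (1.30 ± 0.18). Set against each other, Fasn to Acly went from a ratio of 0.240 to 0.270 at day 0 to 2.07 to 2.48 on adipogenic day 7.

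Among desaturases, the Δ9 enzymes changed most. Scd1, stearoyl-CoA desaturase 1, which makes oleate from stearate, was at 9610, 9904 and 9176 RPKM in adipogenic medium. At day 0 it was at 130, 149 and 127 RPKM and on osteogenic day 7 at 106, 104 and 123. The ratio of means was 70.5 against day 0 (log2 6.13 ± 0.08, limma adjusted p = 6.87e-23) and 86.2 against osteogenic day 7 (6.42 ± 0.08). Scd2, its paralog, was the more abundant of the pair before adipogenic medium and rose less, from 210, 217 and 187 RPKM at day 0 to 604, 665 and 618 (log2 1.62 ± 0.09, and 1.12 ± 0.09 over osteogenic day 7). The ratio of Scd1 to Scd2 was 0.622 to 0.685 at day 0, 0.373 to 0.398 on osteogenic day 7, 0.195 to 0.212 on osteogenic day 15 and 14.8 to 15.9 on adipogenic day 7. How the authors' counting treated reads shared by these near copies is not given in the sources used here.

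The Δ5 and Δ6 desaturases of polyunsaturated fatty acids moved little. Fads1, the Δ5 enzyme, was at 56.3, 61.8 and 49.8 RPKM against 45.4, 49.9 and 43.4 at day 0, groups that overlap by 1 library. Its rise of 0.27 ± 0.10 (limma adjusted p = 0.0188) did not pass without day 0 vehicle replicate 3 (adjusted p = 0.0760) or without adipogenic vehicle replicate 2 (0.108). Fads2, the Δ6 enzyme, was at 16.5, 18.6 and 18.4 RPKM against 10.5, 14.7 and 10.1 (0.57 ± 0.14), and Fads3, a relative, at 33.9, 33.8 and 32.3 against 22.8, 24.7 and 21.6 (0.52 ± 0.10). Against osteogenic day 7, Fads1 and Fads2 did not pass (-0.08 ± 0.10 and 0.22 ± 0.14), and Fads3 passed at 0.35 ± 0.10 but not without osteogenic day 7 vehicle replicate 2 (adjusted p = 0.0597).

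The 6 elongases split. Elovl3, which lengthens saturated and monounsaturated chains and is known from brown fat and skin, stood at 56.3, 57.7 and 52.1 RPKM in adipogenic medium. At day 0 it was listed at 0 in 1 library and at 0.766 and 0.822 in the others, and on osteogenic day 7 at 0.355, 0 and 0 (log2 5.25 ± 0.24 and 5.67 ± 0.24). Elovl3 passed the filter only through the adipogenic libraries, so these differences support nothing. Elovl4, the elongase of very long chains, rose from 3.16, 3.17 and 2.46 to 9.24, 7.56 and 7.64 RPKM (1.22 ± 0.26) and was at 0.927, 0.944 and 0.732 on osteogenic day 7 (2.29 ± 0.26). Elovl6, which extends palmitate to stearate and so feeds Scd1, went the other way. It was at 3.34, 3.56 and 3.46 RPKM against 14.7, 14.4 and 14.5 at day 0 and 15.8, 13.6 and 14.7 on osteogenic day 7. The fall was 4.21-fold and 4.26-fold (log2 -1.80 ± 0.09 and -1.82 ± 0.09, limma adjusted p = 1.84e-13 and 1.26e-13), with the libraries of the groups far apart.

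Elovl5, an elongase of polyunsaturated chains, fell to 18.6, 17.0 and 18.1 RPKM from 28.0, 26.4 and 31.0 at day 0 (-0.64 ± 0.12) and from 38.4, 41.8 and 40.2 on osteogenic day 7 (-1.12 ± 0.12). Between VD3-treated libraries its day 0 comparison did not pass (-0.27, adjusted p = 0.0847). Elovl7, another elongase of long chains, was at 2.35, 2.10 and 1.96 RPKM, below day 0 (5.62, 5.56 and 5.91, -1.09 ± 0.14) and above osteogenic day 7 (1.05, 1.45 and 1.17, 0.50 ± 0.14). Neither passed once the receptor signal was subtracted (-0.03, adjusted p = 0.937, and 0.36, adjusted p = 0.188). Elovl1, which serves very long saturated chains, was at 2.58, 3.71 and 2.56 RPKM against 3.05, 5.22 and 3.59 at day 0, overlapping groups (-0.32 ± 0.21, adjusted p = 0.166). Its value against osteogenic day 7, -0.67 ± 0.21 (adjusted p = 0.0116), did not pass without replicate 2 of that group (0.0824) or without adipogenic vehicle replicate 1 or 3 (0.0502 and 0.0521).

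All 3 regulators rose, but Mlxipl and Thrsp would not have passed the filter without the adipogenic libraries. Their differences from those libraries support nothing. Srebf1, which encodes SREBP-1, was at 18.3, 19.1 and 19.0 RPKM against 5.08, 5.41 and 4.38 at day 0 and 6.26, 6.41 and 6.83 on osteogenic day 7. The groups do not touch, and the rise was 3.80-fold and 2.90-fold (log2 1.74 ± 0.14 and 1.40 ± 0.14). Mlxipl, which encodes the glucose-responsive factor ChREBP, was low throughout, at 1.65, 2.80 and 1.41 RPKM against 1.01, 0.844 and 0.620 at day 0 (0.67 ± 0.21, adjusted p = 0.00707, but 0.0587 without adipogenic vehicle replicate 2 and 0.107 with a pseudocount of 0.1) and 0.194, 0.147 and 0.349 on osteogenic day 7 (1.24 ± 0.21). Thrsp (Spot 14), a small protein of lipogenic tissue whose promoter is printed above, reached 107, 94.9 and 97.3 RPKM from 0.909, 0.991 and 1.76 at day 0 and 0.0510, 0.805 and 0.164 on osteogenic day 7 (log2 5.52 ± 0.21 and 6.27 ± 0.21).

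**Figure D2:**
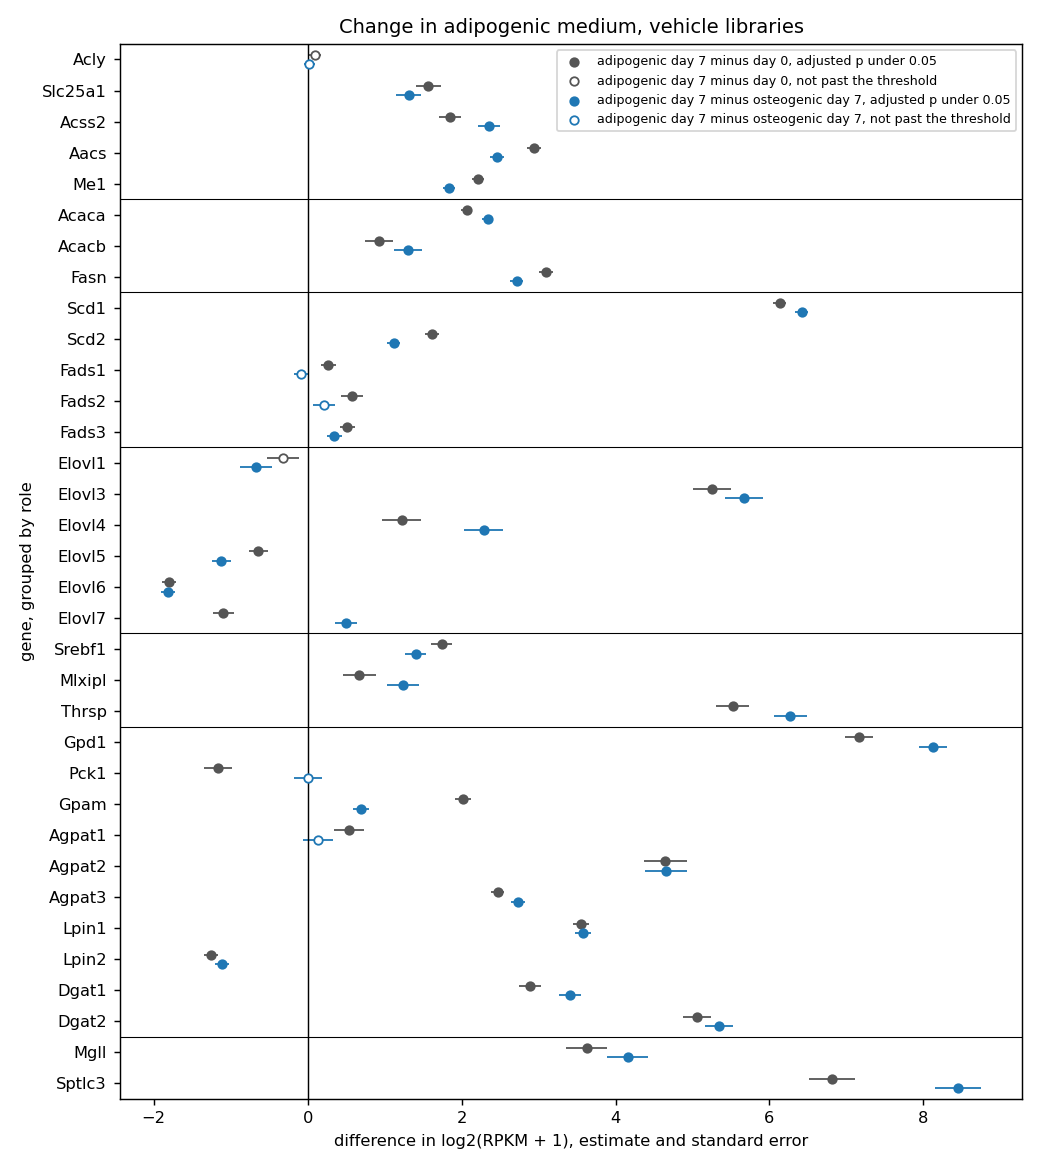
Difference in log2(RPKM + 1) between adipogenic day 7 and day 0 (grey) or osteogenic day 7 (blue) for each gene, vehicle libraries, with standard errors and filled points where adjusted p was under 0.05. Gpd1 (7.16 and 8.12), Sptlc3 (6.81 and 8.45) and Scd1 (6.13 and 6.42) lie farthest right and Elovl6 (-1.80 and -1.82) farthest left.

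In triglyceride assembly, 8 of 10 genes rose over day 0, and isoforms of a family differed in size or direction. Gpd1, which makes glycerol 3-phosphate from a glycolytic intermediate, was at 390, 351 and 396 RPKM against 0.847, 2.51 and 1.86 at day 0 and 0.335, 0.477 and 0.275 on osteogenic day 7 (log2 7.16 ± 0.18 and 8.12 ± 0.18). Pck1, an enzyme on the path from non-sugar precursors to glycerol 3-phosphate, was by contrast near the floor in adipogenic libraries. It was at 0.0760, 0.0460 and 0.160 RPKM, below their receptor median of 0.732 ± 0.120. Its difference from day 0 (1.40, 1.06 and 1.98 RPKM) of -1.17 ± 0.18 is between values under the receptor signal in both groups, of a gene that passed the filter only through those day 0 libraries, turned to 0.22 with the lone day 0 library of low receptor signal, and was 0.00 ± 0.18 against osteogenic day 7. Gpam, the mitochondrial acyltransferase that adds the first chain, rose from 12.6, 10.0 and 10.9 to 48.2, 48.7 and 47.5 RPKM (2.02 ± 0.11, and 0.69 ± 0.11 over osteogenic day 7).

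Of the acyltransferases that add the next chain, Agpat2 rose most. It was at 90.3, 90.9 and 73.2 RPKM against 3.24, 2.09 and 2.01 at day 0 and 2.39, 2.94 and 1.93 on osteogenic day 7 (log2 4.65 ± 0.28 in both comparisons). Agpat3 rose from 16.1, 15.5 and 16.4 RPKM to 92.0, 87.5 and 100 (2.47 ± 0.09, and 2.73 ± 0.09 over osteogenic day 7). Agpat1 was at 6.95, 6.31 and 6.79 RPKM against 3.23, 4.56 and 5.32 at day 0 (0.54 ± 0.20, adjusted p = 0.0176, but 0.112 without day 0 vehicle replicate 1), and did not pass against osteogenic day 7 (0.13 ± 0.20). The ratio of Agpat2 to Agpat1 was 0.378 to 1.00 at day 0 and 10.8 to 14.4 on adipogenic day 7.

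Lipins remove the phosphate to give diacylglycerol, and their isoforms moved apart. Lpin1 was at 75.6, 76.4 and 72.0 RPKM against 5.32, 6.89 and 4.35 at day 0 and 5.34, 5.30 and 5.37 on osteogenic day 7 (log2 3.55 ± 0.11 and 3.58 ± 0.11). Lpin2 fell to 8.39, 7.40 and 8.70 RPKM from 21.0, 21.7 and 19.7 at day 0 and 20.5, 16.2 and 20.0 on osteogenic day 7 (-1.25 ± 0.09 and -1.11 ± 0.09). Every adipogenic library thus lay above the others for Lpin1 and below them for Lpin2, and the ratio of the former to the latter was 0.221 to 0.317 at day 0 and 8.28 to 10.3 on adipogenic day 7. Both enzymes of the last acylation rose. Dgat1 went from 4.70, 3.93 and 3.92 to 39.2, 34.7 and 38.0 RPKM (2.89 ± 0.14, and 3.41 ± 0.14 over osteogenic day 7), and Dgat2, an unrelated enzyme for the same step, from 0.681, 0.914 and 1.19 to 61.7, 59.2 and 68.1 (5.06 ± 0.19 and 5.34 ± 0.19). The ratio of Dgat2 to Dgat1 was 0.145 to 0.302 at day 0 and 1.57 to 1.79 in adipogenic medium.

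The lipase and the sphingolipid gene on the list rose as well. Mgll was at 30.2, 27.4 and 31.7 RPKM against 1.54, 1.92 and 1.07 at day 0 and 0.639, 0.978 and 0.570 on osteogenic day 7 (log2 3.63 ± 0.27 and 4.16 ± 0.27). Sptlc3 was at 442, 418 and 451 RPKM against 2.48, 2.61 and 3.71 at day 0 and 0.271, 0.196 and 0.278 on osteogenic day 7 (6.81 ± 0.30 and 8.45 ± 0.30). Behind Scd1 and Scd2 it had the next highest mean of the members on adipogenic day 7 (437 ± 17.3 RPKM), ahead of Gpd1 (379 ± 24.7).

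The osteogenic states were compared with day 0 and with each other, which asks what changed toward bone and between days 7 and 15. Against day 0, 9 members rose and 12 fell on day 7, beside 13.6% and 50.4% of all genes tested, and the medians were -0.08 for members and -0.46 for all genes. On day 15, 4 rose and 17 fell, beside 17.5% and 53.4%, with medians of -0.32 and -0.55. These splits turned on the scaling: after quantile normalization they were 13 and 5 on day 7 and 11 and 10 on day 15, and with the receptor signal subtracted 21 and 1 and then 15 and 4. With the 1 day 0 library of low receptor signal (VD3-treated libraries, that one alone at day 0), 5 rose and 3 fell on day 7 and 4 rose and 7 fell on day 15.

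Gpam had the largest rise of the members in osteogenic medium. It was at 32.9, 28.2 and 27.6 RPKM on day 7 and 38.9, 35.6 and 35.6 on day 15 against 12.6, 10.0 and 10.9 at day 0 (log2 1.33 ± 0.11 and 1.64 ± 0.11). Its order over states was day 0, osteogenic day 7, osteogenic day 15 and adipogenic day 7 (48.1 ± 0.582 RPKM), of which osteogenic days 7 and 15 did not differ past the threshold (0.31 ± 0.11, adjusted p = 0.0573). Aacs (0.49 ± 0.09 and 0.35 ± 0.09), Me1 (0.38 ± 0.08 and 0.48 ± 0.08) and Elovl5 (0.48 ± 0.12 and 0.50 ± 0.12) also rose on both days. Between VD3-treated libraries, Aacs and Elovl5 did not pass on day 7 (0.10, adjusted p = 0.390, and 0.21, adjusted p = 0.167). Fasn (0.38 ± 0.09), Scd2 (0.50 ± 0.09), Fads1 (0.35 ± 0.10), Fads2 (0.36 ± 0.14) and Srebf1 (0.34 ± 0.14) rose on day 7 and were not different from day 0 past the threshold on day 15. Fads2 lost its call when replicate 1 or 3 of either vehicle group was left out (adjusted p = 0.0960 to 0.145), and Srebf1 also without osteogenic day 7 replicate 2 (0.0560 to 0.144 over these 5).

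Among genes whose day 0 mean was above the receptor median, the falls from day 0 were those of Scd1, Acaca, Acss2, Elovl7, Acly, Elovl6, Lpin2 and Agpat3. Scd1 was at 106, 104 and 123 RPKM on day 7 and 40.0, 42.0 and 43.9 on day 15 against 130, 149 and 127 at day 0 (log2 -0.29 ± 0.08 and -1.67 ± 0.08). Between VD3-treated libraries its day 7 value was 0.30, the opposite direction. On days 7 and 15 Acaca was at -0.27 ± 0.07 and -0.67 ± 0.07, Acss2 at -0.51 ± 0.14 and -1.21 ± 0.14, and Elovl7, the deepest of these, at -1.59 ± 0.14 and -1.76 ± 0.14. With the receptor median subtracted, Acaca (0.33), Acss2 (0.73) and Agpat3 (0.11) turned in sign on day 7 and Elovl7 did not pass (-0.39, adjusted p = 0.121). On day 15 the same subtraction left Acaca (-0.08, limma adjusted p = 0.613) and Acss2 (-0.04, 0.901) not passing, and Agpat3 turned in sign. Between VD3-treated libraries Acaca did not pass on day 15 (-0.17, adjusted p = 0.0600). Agpat3 was at -0.26 ± 0.09 and -0.19 ± 0.09, the latter with adjusted p = 0.0493 and up to 0.202 when 1 library was left out (day 0 vehicle replicates 1, 2 and 3, osteogenic day 15 vehicle replicates 2 and 3). Acly (-0.66 ± 0.07), Elovl6 (-0.70 ± 0.09) and Lpin2 (-0.44 ± 0.09) fell on day 15 alone. Of these, Lpin2 did not pass with the receptor median subtracted (-0.16, limma adjusted p = 0.277) and turned in sign between VD3-treated libraries. The remaining falls, of Elovl4, Mlxipl, Thrsp, Gpd1, Pck1, Dgat1 and Sptlc3 on both days and of Acacb and Agpat2 on day 15, are of genes below the day 0 receptor median, from -0.42 to -1.70 (log2), and each turned in sign under at least 1 of the alternatives listed at the end. The falls of Pck1, which passed the filter only through the day 0 vehicle libraries, support nothing.

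Day 15 against day 7 leaves the day 0 libraries out of the contrast. Of the 34 members, 11 fell and 0 rose, beside 6.47% and 6.87% of all genes, and the members' median was -0.16 against 0.00. Scd1 fell most, from 111 ± 10.2 to 42.0 ± 1.95 RPKM (n = 3 each, log2 -1.38 ± 0.08, limma adjusted p = 1.22e-10), and every day 15 library was below every day 7 library. Acly fell from 35.0 ± 1.01 to 20.7 ± 0.992 RPKM (-0.73 ± 0.07), Elovl6 from 14.7 ± 1.10 to 8.64 ± 1.08 (-0.71 ± 0.09) and Acss2 from 3.97 ± 0.808 to 2.06 ± 0.486 (-0.70 ± 0.14). These genes span the path from acetyl-CoA through palmitate elongation to desaturation. Fads1 (-0.52 ± 0.10), Scd2 (-0.50 ± 0.09), Fasn (-0.45 ± 0.09) and Acaca (-0.40 ± 0.07) fell by less. Srebf1 (-0.45 ± 0.14), Agpat2 (-0.92 ± 0.28) and Lpin2 (-0.30 ± 0.09) also passed, with adjusted p = 0.0302, 0.0284 and 0.0235. These 3 calls were lost without osteogenic day 7 vehicle replicate 1 or without osteogenic day 15 vehicle replicate 2, with adjusted p = 0.0531 to 0.205, and each also without some other library. None of the 10 triglyceride assembly genes other than Agpat2 and Lpin2 passed.

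VD3 was compared with vehicle in each of the 4 states, which asks whether the response to the hormone depends on the state of the cell. In at least 1 state 18 members changed, beside 17.6% of all genes tested, and 16 changed in none: Slc25a1, Acss2, Aacs, Acacb, Fads2, Elovl1, Elovl3, Elovl4, Srebf1, Mlxipl, Thrsp, Gpd1, Agpat1, Agpat2, Mgll and Sptlc3. At day 0, 4 members rose and 10 fell, beside 3.98% and 11.0% of all genes. The medians there were -0.29 (log2) for members and -0.27 for all genes. On osteogenic day 7, 4 rose and 4 fell, beside 2.91% and 2.35%. On adipogenic day 7, 2 rose and 0 fell, beside 1.51% and 0.574%, and 7 members had an unadjusted p under 0.05. On osteogenic day 15, limma called 0 members, beside 0.773% of all genes in either direction, while 9 had an unadjusted p under 0.05. The shares given are at the adjusted threshold. The share of all genes at unadjusted p under 0.05 was not counted, so the 7 and 9 members cannot be judged against it.

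The 10 falls at day 0 were of 2 supply genes (Acly and Me1), 2 palmitate synthesis genes (Acaca and Fasn), 4 desaturases (Scd1, Scd2, Fads1 and Fads3) and 2 assembly genes (Pck1 and Lpin2). Apart from Pck1, Scd2 fell most, from 210, 217 and 187 to 123, 125.4 and 115 RPKM (log2 -0.75 ± 0.09, limma adjusted p = 2.31e-06). Scd1 was at 91.9, 89.6 and 87.5 RPKM against 130, 149 and 127 (-0.59 ± 0.08), and Me1 at 28.0, 28.8 and 29.1 against 42.4, 44.2 and 38.2 (-0.52 ± 0.08). In all of these the VD3 and vehicle libraries were apart. Fads1 fell from 46.2 ± 3.32 to 32.8 ± 1.04 RPKM (n = 3 each, -0.48 ± 0.10), Fads3 from 23.0 ± 1.55 to 17.0 ± 0.779 (-0.42 ± 0.10) and Acly from 33.3 ± 2.03 to 26.2 ± 1.07 (-0.33 ± 0.07). Acaca (11.4, 10.4 and 10.1 to 8.05, 7.21 and 7.76 RPKM, -0.42 ± 0.07) and Fasn (9.15, 8.39 and 7.82 to 6.40, 6.49 and 5.54, -0.41 ± 0.09) fell too. Both lost the call with the receptor signal subtracted (-0.35 and -0.36, adjusted p = 0.113 and 0.288) or with the day 0 libraries fitted alone (0.0612 and 0.136). Lpin2 fell from 20.8 ± 1.02 to 14.3 ± 0.490 RPKM (-0.51 ± 0.09), not called from its largest transcript alone (adjusted p = 0.247). Pck1, under the receptor signal in both groups, was at 0.451, 0 and 0.662 against 1.40, 1.06 and 1.98 RPKM (-0.87 ± 0.18). It passed the filter only through the day 0 vehicle libraries, so this fall supports nothing. Its call was lost with the day 0 libraries fitted alone (adjusted p = 0.18), with quantile normalization (0.111) and with a pseudocount of 0.1 (0.0629).

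The 4 rises at day 0 were of Elovl7 and of 3 assembly genes, a role in which 2 others fell. Elovl7 went from 5.62, 5.56 and 5.91 to 13.0, 10.7 and 13.2 RPKM, 2.16-fold (log2 0.98 ± 0.14, limma adjusted p = 3.18e-05). Agpat3 went from 16.1, 15.5 and 16.4 to 28.4, 32.4 and 27.1 RPKM (0.83 ± 0.09), and Dgat1 from 4.70, 3.93 and 3.92 to 8.49, 7.92 and 8.65 (0.85 ± 0.14). All VD3 libraries lay above all vehicle libraries for these 3 genes. Dgat2 was at 1.90, 2.83 and 1.40 against 0.681, 0.914 and 1.19 RPKM (0.64 ± 0.19, adjusted p = 0.0240). It did not pass without day 0 VD3 replicate 2 (0.178) or day 0 vehicle replicate 1 or 2 (0.0848 and 0.0588). The receptor median differed within this comparison, 4.20 ± 0.714 RPKM in vehicle and 2.76 ± 2.07 in VD3 libraries, where replicate 2 had 0.455. Leaving out VD3 replicate 2 changed the call of no other member named here.

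**Figure D3:**
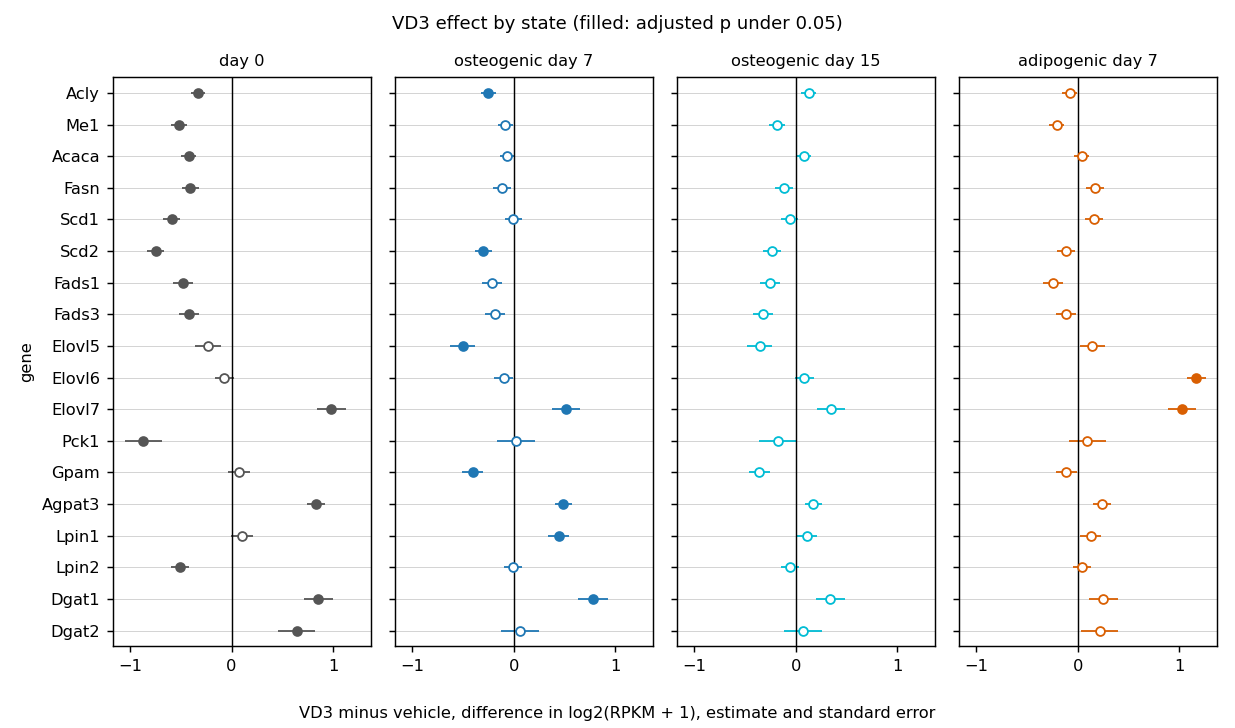
VD3 minus vehicle in log2(RPKM + 1), with standard errors, for the 18 genes called in at least 1 state, 1 panel per state with 3 libraries against 3, filled where adjusted p was under 0.05. Filled points lie mostly left of 0 at day 0, on both sides on osteogenic day 7, nowhere on osteogenic day 15, and on adipogenic day 7 only at Elovl6 (1.17) and Elovl7 (1.03).

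On osteogenic day 7, Dgat1, Agpat3 and Elovl7 rose with VD3 as they did at day 0. Dgat1 was at 4.78, 5.19 and 5.59 RPKM against 3.09, 2.87 and 1.94 (log2 0.78 ± 0.14, limma adjusted p = 0.00110), and Agpat3 at 20.7, 17.8 and 18.3 against 13.3, 13.7 and 12.6 (0.49 ± 0.09, adjusted p = 0.000733). Elovl7 was at 2.54, 2.21 and 1.81 RPKM against 1.05, 1.45 and 1.17 (0.52 ± 0.14, adjusted p = 0.0290). Lpin1 was at 8.43, 7.81 and 6.71 RPKM against 5.34, 5.30 and 5.37 (0.44 ± 0.11, adjusted p = 0.0120), a rise of the sum of its transcripts that its largest transcript alone did not pass (0.819). The falls were those of Elovl5 (23.2, 31.4 and 30.2 against 38.4, 41.8 and 40.2 RPKM, -0.50 ± 0.12), Gpam (21.2, 27.2 and 18.5 against 32.9, 28.2 and 27.6, -0.40 ± 0.11), Scd2 (236, 228 and 242 against 281, 262 and 329, -0.30 ± 0.09) and Acly (29.4, 28.6 and 29.9 against 35.3, 33.9 and 35.9, -0.25 ± 0.07).

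Most of these calls turned on single libraries. With 1 library left out, 2 to 8 members passed: 4 without vehicle replicate 1, 5 without vehicle replicate 3, 2 without VD3 replicate 1, and 5 without VD3 replicate 2 or 3. With the osteogenic day 7 libraries fitted alone 2 passed, Agpat3 and Dgat1. Acly lost its call without any 1 of the 6 libraries (adjusted p = 0.0719 to 0.130) and Scd2 without any but vehicle replicate 2 (0.0719 to 0.254). Elovl5 lost it without vehicle replicate 2 or VD3 replicate 1, Lpin1 without VD3 replicate 1, Gpam without vehicle replicate 1 or VD3 replicate 1 or 3, and Elovl7 without vehicle replicate 1 or 3 or VD3 replicate 1 or 2, with adjusted p = 0.0722 to 0.156 for these 4 genes.

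In adipogenic cells, where most of the pathway was at its highest, 2 members rose with VD3, both elongases. Elovl6 was at 8.75, 9.15 and 9.08 RPKM with VD3 and 3.34, 3.56 and 3.46 with vehicle. The groups are far apart, and the rise was 2.60-fold (log2 1.17 ± 0.09, limma adjusted p = 1.84e-08). Its VD3 level there lay near that of osteogenic day 15 (8.64 ± 1.08 RPKM with vehicle) and below day 0 (14.5 ± 0.109). In the other states Elovl6 was 14.4, 12.6 and 14.6 RPKM with VD3 at day 0, 13.1, 13.9 and 14.0 on osteogenic day 7 and 9.96, 9.37 and 8.25 on osteogenic day 15, each overlapping its vehicle group. Elovl7 was at 4.66, 6.52 and 5.12 RPKM against 2.35, 2.10 and 1.96 (2.54-fold, log2 1.03 ± 0.14, adjusted p = 4.96e-05). Agpat1 was at 11.2, 12.01 and 11.8 RPKM against 6.95, 6.31 and 6.79, groups that do not overlap, but its difference of 0.72 ± 0.20 did not pass (adjusted p = 0.0633). Scd1 was at 11460, 10481 and 10089 RPKM with VD3 (log2 0.16 ± 0.08, adjusted p = 0.789) and Fasn at 88.8, 87.2 and 93.0 (0.17 ± 0.09, adjusted p = 0.738). Neither passed, though all VD3 libraries lay above all vehicle libraries for both. Elovl5, Srebf1, Thrsp, Agpat3, Lpin1, Dgat1 and Dgat2 also lay above without passing. In the other direction, all VD3 libraries lay below all vehicle libraries for the elongase Elovl4 (3.89, 5.85 and 4.97 against 9.24, 7.56 and 7.64 RPKM), Me1 (178, 161 and 170 against 186, 204 and 198) and Gpam (43.6, 44.0 and 45.6 against 48.2, 48.7 and 47.5). These did not pass either. How often VD3 and vehicle libraries lie apart over all genes was not counted. Lying apart therefore supports no change in the genes that did not pass. The 8 adipocyte markers summed to 26214 to 29863 RPKM with VD3 against 29001 to 31354 with vehicle. None of the 8 passed, beside 1.51% of all genes higher and 0.574% lower. The 8 osteoblast markers summed to 42.3 to 52.6 RPKM with VD3 against 129 to 150 with vehicle. Of these, Col1a1 was higher and Ibsp (3.23 ± 0.404 against 104 ± 7.89 RPKM) and Sp7 were lower, and their part in the members' differences was not tested.

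**Figure D4:**
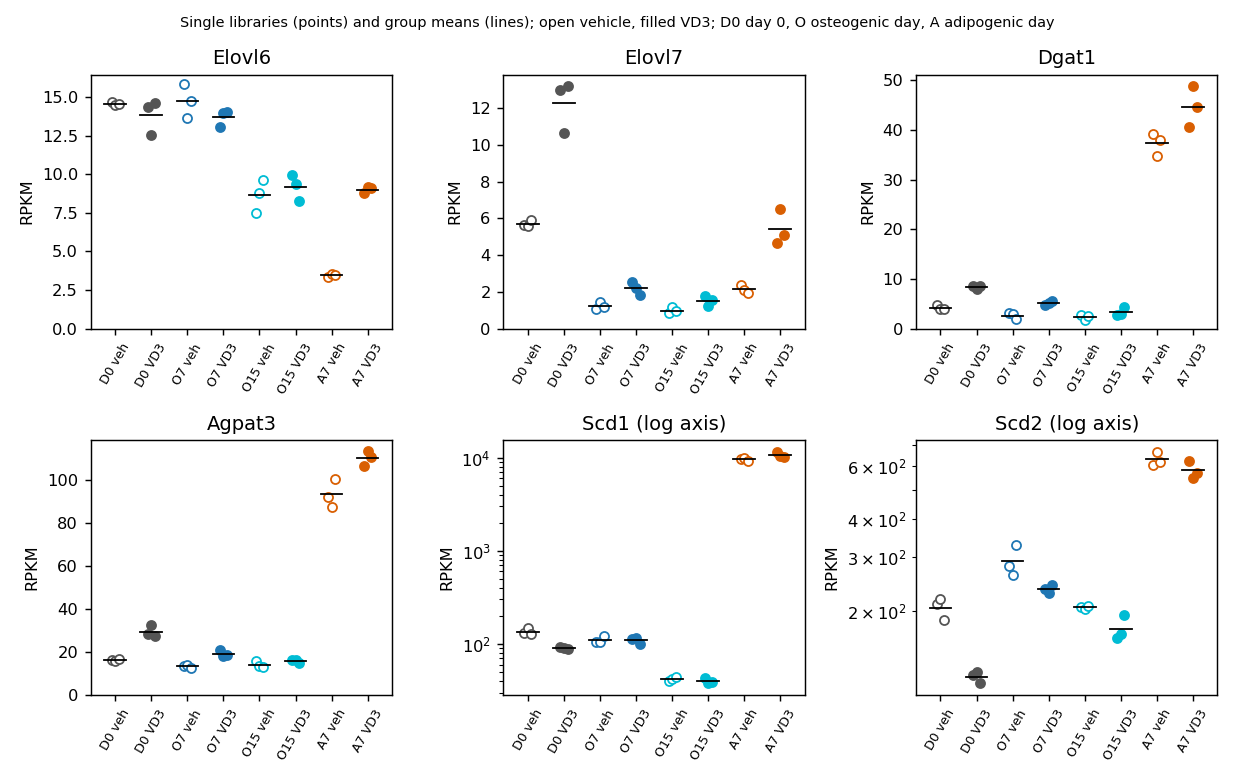
RPKM of Elovl6, Elovl7, Dgat1, Agpat3, Scd1 and Scd2 in all 24 libraries, open points vehicle and filled points VD3, lines for group means of 3, with log axes for Scd1 and Scd2. Elovl6 separates by VD3 in the adipogenic libraries (8.75 to 9.15 against 3.34 to 3.56 RPKM) and overlaps in the other states, and Elovl7 is higher with VD3 at day 0 (10.7 to 13.2 against 5.56 to 5.91).

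The difference of the VD3 effect between states was tested directly. Between adipogenic and osteogenic day 7, 1 member passed, beside 0.967% of all genes higher and 0.853% lower: Elovl6, by 1.26 ± 0.13 (limma adjusted p = 3.68e-06). For Elovl7 the same difference was 0.51 ± 0.20 and did not pass (adjusted p = 0.298). Between adipogenic day 7 and day 0, 7 members had the higher effect in adipogenic cells and 1 the lower, beside 2.46% and 1.01%, with medians of 0.25 for members and 0.31 for all genes. The 7 were Elovl6 (1.24 ± 0.13), Pck1 (0.96 ± 0.26), Scd1 (0.75 ± 0.12), Scd2 (0.63 ± 0.12), Fasn (0.57 ± 0.12), Lpin2 (0.55 ± 0.13) and Acaca (0.46 ± 0.10). The value of Pck1, which passed the filter only through the day 0 vehicle libraries, supports nothing. Agpat3 had the lower effect in adipogenic cells (-0.59 ± 0.12). With quantile normalization or the receptor signal subtracted, the split was 3 and 2 in place of 7 and 1. Acaca did not pass without adipogenic vehicle replicate 1 (adjusted p = 0.0511), and Pck1 was lost without day 0 VD3 replicate 2 or any 1 adipogenic library (0.0585 to 0.109). Between osteogenic days 15 and 7, limma called 0 members, beside 0.185% of all genes in either direction. An unadjusted p under 0.05 was found for 5 members, and the share of all genes at that threshold was not counted.

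A wider list of 41 lipid synthesis genes that are no members was read the same way, and 40 of them were present and 37 tested (Gpat2, Mogat2 and Acsl6 were too low). On adipogenic day 7, 20 rose and 10 fell against day 0, beside 13.2% and 65.5% of all genes, and 18 rose and 11 fell against osteogenic day 7, beside 12.4% and 25.4%. The largest rises were of Acsl1, which activates fatty acids to acyl-CoA (856 ± 45.9 against 8.40 ± 0.725 RPKM at day 0), Pcx, the pyruvate carboxylase that refills citrate (211 ± 11.8 against 7.31 ± 1.23), and the Scd1 paralog Scd3 (53.9 ± 4.43 against 3.18 ± 0.538). Against day 0, 8 rose and 13 fell on osteogenic day 7, beside 13.6% and 50.4%, and 10 and 20 on day 15, beside 17.5% and 53.4%. The largest differences on day 7 were of the lipid droplet protein Pnpla3 (-1.42), the polyunsaturated chain elongase Elovl2 (-1.28) and the mitochondrial malic enzyme Me3 (-1.08), and on day 15 of Nr1h3, the liver X receptor (-1.66), Insig1, which retains SREBP proteins in the endoplasmic reticulum (-1.64), and Scd3 (-1.39). At day 0 the means of Pnpla3 (2.04 ± 0.949 RPKM), Elovl2 (1.84 ± 0.870), Me3 (1.82 ± 0.137) and Scd3 (3.18 ± 0.538) lay below the receptor median. The day 0 VD3 library of low receptor signal had 0.405, 0.0130, 0.206 and 0.862 RPKM of them, and the part of that signal in their falls was not tested. Elovl2, Me3 and Acot11 passed the filter only through day 0 libraries, so their falls from day 0, counted above, support nothing. Day 15 against day 7 had 4 higher and 8 lower, beside 6.87% and 6.47% of all genes, among them Nr1h3 (3.06 ± 1.23 against 8.59 ± 1.61 RPKM, log2 -1.28), Insig1 (63.4 ± 6.80 against 119 ± 3.10, -0.90) and the isocitrate dehydrogenase Idh1 (-0.90).

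With VD3, Insig2, the relative of Insig1, rose in all 4 states. It went from 32.6 ± 2.26 to 76.4 ± 3.09 RPKM at day 0 (log2 1.21), 36.2 ± 2.57 to 68.4 ± 4.57 on osteogenic day 7 (0.90), 50.4 ± 1.90 to 64.4 ± 3.14 on osteogenic day 15 (0.35) and 50.4 ± 1.34 to 83.6 ± 6.99 on adipogenic day 7 (0.72). Its effect was lower on osteogenic day 15 than on day 7 by 0.55 (limma adjusted p = 0.0325). At day 0, 5 of the list rose and 3 fell, beside 3.98% and 11.0% of all genes, including Idh1, which yields NADPH (505 ± 16.3 against 222 ± 6.12 RPKM), and Scd3 (1.07 ± 0.367 against 3.18 ± 0.538). On osteogenic day 7, 5 rose and 1 fell, beside 2.91% and 2.35%, and on adipogenic day 7, 3 rose and 0 fell, beside 1.51% and 0.574%. In both of these states the lipin Lpin3 (0.69 and 0.81) and Ptplb, a dehydratase of chain elongation (0.56 and 0.61), were among them. Ptplb was at 45.0 ± 1.61 RPKM with VD3 and 29.1 ± 1.27 with vehicle in adipogenic cells, beside the rises of Elovl6 and Elovl7. Against day 0, 2 of the list had a higher VD3 effect in adipogenic cells, Insig1 (0.92) and Ptplb (0.80), and 2 a lower one, of which Idh1 (-1.13) differed most, beside 2.46% and 1.01% of all genes.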

How the data were processed

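Each of 24 libraries has 1 deposited file of RPKM per transcript, made by the authors. Per the labels' protocols, RNA was depleted of ribosomal RNA and made into directional libraries. Per the submitters' processing notes, reads were aligned with TopHat and mm9 was used. The counting tool and annotation are not given in the sources used here.

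Values of the 30795 transcripts were added up by symbol, leaving out 25 symbols written as dates. Groups came from the labels. The 21097 genes that reached 1 RPKM in 3 or more libraries entered limma 3.58.1 (R 4.3.3) as log2(RPKM + 1), a fit of 8 groups over 24 libraries with trend and robust options and a threshold of adjusted p under 0.05. The code was tested on simulated data. Depth was estimated from 150 low values of 612 olfactory receptor genes, of which 94.0 to 98.7% lay within 0.1 of a whole read. Correlation within groups was 0.926 to 0.993, and 0 pairs of libraries were identical. The 34 members, the wider list, the marker lists and the rule for naming genes (every member that passes, up to 3 of the wider list per comparison) were chosen with earlier results of these data known. Alternatives were another pseudocount (0.1), filter (none, 5 RPKM), scaling, a replicate term, other fits, subtraction of the receptor median and leaving out libraries. Figures used Python 3.11.15 and matplotlib 3.10.9.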

Additional observations from a re-analysis of the deposited data

Results flagged for a closer look

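The following differences of the VD3 effect between 2 states passed limma's test of the difference itself (log2 scale, 3 libraries a group). Elovl6 responded more in adipogenic cells than on osteogenic day 7, by 1.26 (adjusted p = 3.68e-06), and more than at day 0, by 1.24 (adjusted p = 3.52e-06). It rose in 3 of 3 adipogenic VD3 libraries above all 3 vehicle libraries and overlapped with vehicle in the other states.

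Against day 0, the effect in adipogenic cells was higher for Scd1 by 0.75 (limma adjusted p = 0.000607), Scd2 by 0.63 (0.00463), Fasn by 0.57 (0.00887), Acaca by 0.46 (0.0149), Lpin2 by 0.55 (0.0147) and Pck1 by 0.96 (0.0408). It was lower for Agpat3, at -0.59 (adjusted p = 0.00672). Pck1 passed the filter only through the day 0 vehicle libraries, so its value supports nothing. At day 0 VD3 against vehicle passed for each of these genes, and in adipogenic cells for none. In adipogenic cells the VD3 libraries of Scd1, Fasn and Agpat3 also lay above all vehicle libraries (log2 0.16, 0.17 and 0.24). How often this happens over all genes was not counted, so it supports no change. The receptor signal differed between the day 0 groups (4.20 ± 0.714 RPKM with vehicle, 2.76 ± 2.07 with VD3), and its part in these differences was not tested. The median of all genes in this comparison was 0.31.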

How the results depend on the processing

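Of 147 results on single genes, each under several alternatives (2455 in all), 2210 kept their direction and side of the threshold, 203 kept the direction but no longer passed, and 42 reversed, all of them in comparisons with day 0. The cause of these changes was not tested. The number of members called moved by over 1.5 times as follows. With the lone day 0 library of low receptor signal it was 8 in place of 21 on osteogenic day 7 and 11 in place of 21 on day 15. For osteogenic day 15 against 7 (11) it was 6 with the receptor median subtracted and 17 between VD3-treated libraries. For VD3 on osteogenic day 7 (8) it was 5 with quantile normalization, 2 with subtraction and 2 with only the compared libraries fitted, and 2 to 8 with 1 library left out. For the VD3 effect in adipogenic cells against osteogenic day 7 (1) it was 2 with the filter at 5 RPKM or the narrow fit, and 1 to 2 with 1 library left out (2 without osteogenic day 7 VD3 replicate 2). Against day 0 (8) it was 5 with quantile normalization and 5 with subtraction.

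Without the 5 day 0 libraries of high receptor signal, an alternative chosen after seeing the data for comparisons that use no day 0 group, each count stayed within 1.5 times. Counts with 1 library left out were 30 to 32 for adipogenic day 7 against day 0, 27 to 29 against osteogenic day 7, 19 to 21 and 16 to 20 for osteogenic days 7 and 15 against day 0, 8 to 11 for day 15 against 7, 12 to 17 for VD3 at day 0, 2 for VD3 in adipogenic cells and 6 to 8 for its difference from day 0. The split of higher and lower calls was 10 and 6 on osteogenic day 7 and 6 and 12 on day 15 between VD3-treated libraries. For VD3 at day 0 it was 6 and 8 with quantile normalization and 5 and 7 with subtraction, against 4 and 10. Adipogenic day 7 against day 0 gave 26 higher and 3 lower with the lone day 0 library, 28 and 3 between VD3-treated libraries, 27 and 3 with quantile normalization and 28 and 3 with subtraction.

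Same-numbered libraries did not deviate together (27 pairs, correlations of -0.09 to 0.17, 4 over 0.1, 9 best with their own number). Such weak correlations cannot show whether same-numbered libraries share a culture, and the main fit did not pair them. With a replicate block the counts were 20 in place of 21 for osteogenic day 15 against day 0 and 6 in place of 8 for VD3 on osteogenic day 7, and the others did not change.

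On adipogenic day 7, Pck1 reversed to 0.22 (lone library). The following reversals (log2) are of falls. On osteogenic day 7 they were, with quantile normalization, Elovl4 0.13, Mlxipl 0.34, Thrsp 0.23, Gpd1 0.15 and Dgat1 0.34. With subtraction they were Acss2 0.73, Acaca 0.33, Elovl4 0.61, Thrsp 0.23, Gpd1 0.11, Agpat3 0.11 and Dgat1 1.33. Between VD3-treated libraries they were Acaca 0.083 and Scd1 0.30. With the lone library they were Acaca 0.16, Scd1 0.30, Elovl4 0.40, Mlxipl 0.32, Thrsp 0.45, Pck1 0.15 and Sptlc3 0.45. On osteogenic day 15 they were, with quantile normalization, Acacb 0.31, Elovl4 0.46, Mlxipl 0.26, Thrsp 0.051, Gpd1 0.25, Pck1 0.12, Agpat2 0.29 and Dgat1 0.30. With subtraction they were Elovl4 1.06, Gpd1 0.14, Agpat2 0.54, Agpat3 0.18 and Dgat1 1.22, and between VD3-treated libraries Elovl4 0.19 and Lpin2 0.013. With the lone library they were Elovl4 0.94, Mlxipl 0.36, Thrsp 0.12, Pck1 0.15 and Sptlc3 0.24. Depth limits low genes: 3 reads on 1 kilobase are up to 0.423 RPKM.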
